A study of Mus musculus with 6 samples.

Results

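The genes described here code for enzymes that detoxify foreign and endogenous compounds, conjugate them to a soluble group, or remove reactive oxygen in mouse Leydig cells, the androgen-producing cells of the testicular interstitium. Members were taken by gene symbol alone, from the families of cytochrome P450 enzymes 1 to 4, flavin-containing monooxygenases, carboxylesterases, epoxide hydrolases, aldehyde dehydrogenases, aldo-keto, carbonyl and quinone reductases, glutathione S-transferases, UDP-glucuronosyltransferases, sulfotransferases, and the glutathione, thioredoxin, peroxiredoxin, superoxide dismutase, catalase and haem oxygenase genes. This gave 123 genes of the 10580 in the deposited table. The pattern took 126 genes, from which Aldh1a1, Akr1b7 and Sult1e1 were left out by name.

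Detoxification proceeds in steps. Oxidation, hydrolysis or carbonyl reduction exposes a reactive group, a transferase then attaches glutathione, glucuronic acid or sulfate, and transporters export the product. Superoxide dismutases, catalase, peroxidases and the glutathione and thioredoxin systems deal with the superoxide, peroxides and oxidised thiols that oxidation leaves behind. Leydig cells make androgens with mitochondrial and microsomal P450 enzymes, which consume oxygen and NADPH and release reactive oxygen as a by-product.

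The study sequenced RNA from fetal Leydig cells (FLCs) of embryonic day 18.5 testes and adult Leydig cells (ALCs) of postnatal day 100 testes, with 3 libraries each. Both stages carried the same reporter, a heterozygous Tg(Nr5a1-GFP) transgene, and the embryos came from transgenic males mated with outbred CD-1 females. Male cells with strong GFP were sorted. The fetal cells of separate sorts were pooled to reach enough RNA, so a fetal library is not 1 animal. The adult cells also came from several independent purifications, and the number of animals in an adult library is not known here. Nr5a1, the gene whose regulatory sequence drives the reporter, is also active in Sertoli cells, and the sort rested on the brighter signal of Leydig cells.

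The value described for each gene is the authors' mean, a single mean of normalized counts over all 6 libraries. It carries no spread and does not separate FLCs from ALCs, so no member is said here to be higher at either stage. The depth of each library is unknown from the values used. The table holds only genes that passed the authors' own limit on the adjusted p-value of their comparison, and any gene outside it was not analysed here. Levels of different genes were compared per kilobase of exon, which is the authors' mean divided by the exonic length in the GENCODE vM21 annotation of GRCm38. All 123 members had such a length, and so did 10522 of the listed genes.

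Leydig markers were high in the mean over all 6 libraries, which does not show either stage on its own. All 6 Leydig markers were listed, with the authors' mean between 27742 and 283675, and Insl3, Cyp17a1 and Hsd3b1 held the first 3 ranks of the whole table per kilobase. Transcripts of other testis cells were also present. All 6 spermatid markers were listed, with a summed authors' mean of 7131 and a range from 62.9 for Acrv1 to 3191 for Prm2, the packaging protein of sperm chromatin. For Sertoli cells 2 of 3 markers were listed at 89.0 and 137, for immune cells 3 of 4 at 11.6 to 982, for interstitial progenitors 2 of 3 at 216 and 1174, for germ cells 1 of 3 at 184 and for endothelial cells 1 of 3 at 102. No marker of peritubular myoid cells (of 3) or red cells (of 4) was among the listed genes. Of 5 hepatocyte markers only Alb and Fgb were listed, at 21.1 and 2.94. Because listing depended on the authors' comparison of the stages, an unlisted marker may still be expressed. The numbers of markers listed therefore do not measure which cell types were present or absent. In such bulk samples, fewer cells of a type and less RNA per cell cannot be told apart.

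The listed detoxification genes sat high among the listed genes. The rule takes 265 annotated protein-coding genes, of which 142 were not listed and not analysed here, so the values below describe only the 123 that were. Their median level was 467 per kilobase, against 147 over all listed genes, and 91 of the 123 members (74.0%) were above the median of the listed genes. The middle of the distribution, from the first to the last quartile, ran from 136 to 2288 per kilobase for the members and from 31.8 to 427 for all listed genes. Of the 500 highest genes per kilobase, 37 were members, which is 30.1% of the members against 4.75% of listed genes, and 10 members were among the highest 100. They made up 1.16% of the listed genes and 3.88% of the summed authors' mean. These are descriptions of 1 pooled value per gene and have no replicate check.

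**Figure D1:**
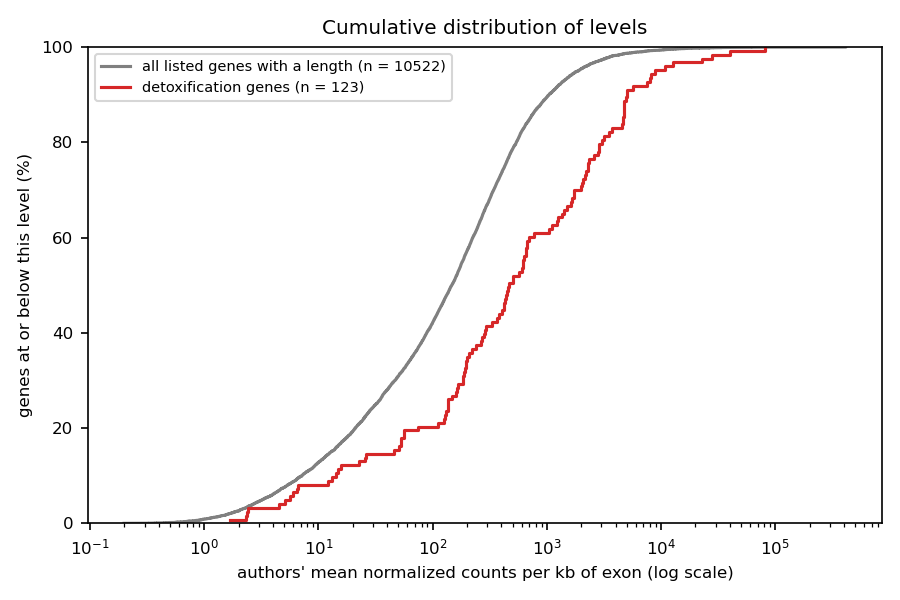
Cumulative share of genes (vertical axis, %) at or below each level (horizontal axis, the authors' mean normalized counts per kb of exon, log scale), for the 123 detoxification genes (red) and the 10522 listed genes with an exonic length (grey). The red curve lies to the right over most of the range, with medians of 467 and 147.

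Levels spread very widely within the group. The highest member, Gstm1, stood 48947-fold above the lowest, Cyp2s1, per kilobase. The 5 highest members held 51.7% of the members' summed level per kilobase and the 10 highest held 63.8%. At the lower end, 8 members (6.50%) had an authors' mean under 10, against 4.61% of all listed genes. In the lowest 10% of the table per kilobase lay 10 of the 123 members, a share under 10%. By role, the 37 conjugating enzymes held 49.4% of the members' summed level per kilobase and the 32 carbonyl-metabolising enzymes 21.8%. The 32 antioxidant genes held 15.5%, the 5 hydrolases 12.7% and the 17 oxidases 0.735%. The conjugating share includes 10.9% from 9 Ugt1a genes, which share exons and so repeat counts of 1 locus. The antioxidant share includes 5.35% from 9 genes grouped there only by a Txn symbol, of which Txnip held 3.54%.

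**Figure D2:**
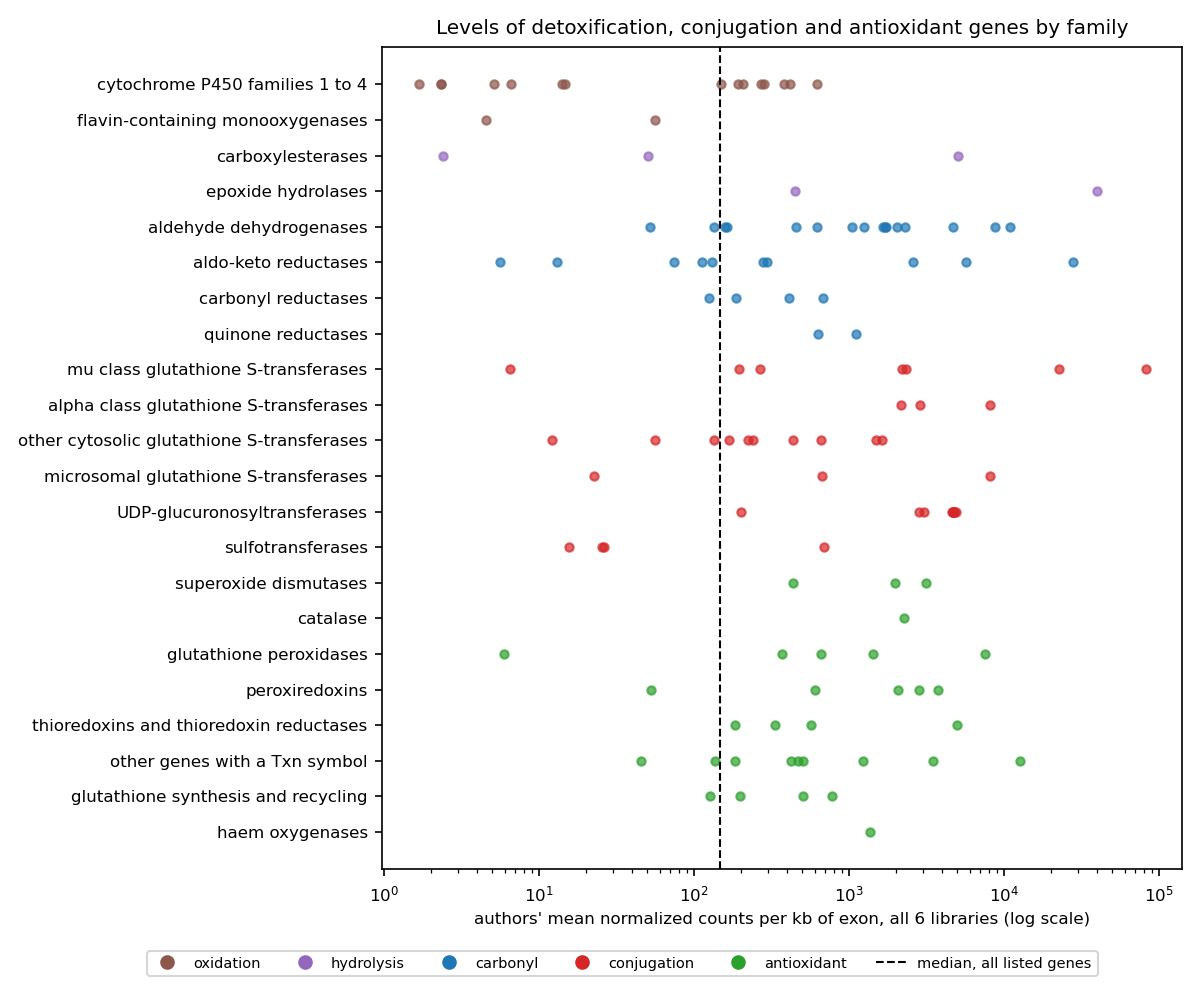
Level of each of the 123 genes (points; horizontal axis, the authors' mean normalized counts per kb of exon, log scale) by family (vertical axis), coloured by role, with the median of all listed genes as a dashed line at 147. Mu class glutathione S-transferases reach the highest level, 81934, and all 17 oxidases stay at or below 619.

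The first-step oxidases were the lowest role, with a median of 55.8 per kilobase. None of the 17 was among the 500 highest genes, and 8 were above the median of the listed genes. Of the 15 P450 genes of families 1 to 4, of 81 that the annotation holds, Cyp2d22 was highest at 619 per kilobase (authors' mean 2421). Next came Cyp4f14 at 418 and Cyp4f13 at 380 per kilobase, both of the CYP4F group that hydroxylates fatty acids and eicosanoids. Cyp1b1, which oxidises oestrogens and polycyclic hydrocarbons, stood at 193 per kilobase. The lowest were Cyp2s1 at 1.67, Cyp2a12 at 2.34 and Cyp2c55 at 2.35 per kilobase, whose authors' means were 8.27, 8.10 and 4.69. By comparison, the steroidogenic P450 genes Cyp17a1 and Cyp11a1 had levels of 102447 and 48124 per kilobase. The flavin-containing monooxygenases Fmo5 and Fmo2, which oxidise nitrogen and sulfur atoms, stood at 55.8 and 4.54 per kilobase.

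Hydrolysis was dominated by 1 gene. Ephx1, the microsomal epoxide hydrolase that opens reactive epoxides to diols, had the second highest level of the members per kilobase of exon. It stood at 39732 per kilobase (authors' mean 77477, rank 10 of the table). Per coding kilobase Ephx1 stood at 53916, below Akr1cl at 121098 and Gstm2 at 58489. Ephx2, the soluble hydrolase of fatty acid epoxides, stood at 450 per kilobase. Among the carboxylesterases, which cleave esters and amides, Ces1d reached 5059 per kilobase, Ces2g 50.2 and Ces1f 2.41. Ces1d and Ces1f are neighbours within 114 kb of chromosome 8, and their levels per kilobase differed 2100-fold.

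Enzymes that oxidise or reduce aldehydes and ketones formed a broad, high group. Of 20 annotated aldehyde dehydrogenases, 16 were listed, both counts without Aldh1a1, with a median of 1455 per kilobase. The mitochondrial enzymes Aldh1b1 and Aldh2, which oxidise acetaldehyde and lipid aldehydes, had the highest levels of these 16, from which Aldh1a1 had been left out by name, at 10849 and 8777 per kilobase. By the authors' mean Aldh2 was the higher, at 44993 against 24932 for Aldh1b1. Aldh1l1, a folate enzyme that oxidises 10-formyltetrahydrofolate, followed at 4717 per kilobase. Aldh1a2, which makes retinoic acid, stood at 1711 per kilobase and its relative Aldh1a3 at 163. The lowest was Aldh3b2, at 52.3 per kilobase, whose neighbour Aldh3b1 stood at 2302.

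The aldo-keto reductases, which reduce aldehydes and ketones with NADPH, ran from very high to barely detected. Akr1cl came after Gstm1 and Ephx1 among all members at 27793 per kilobase, with an authors' mean of 116981 and rank 18 of the table. Akr1a1, the aldehyde reductase, reached 5702 and Akr1b8 2583 per kilobase. The median of the 10 aldo-keto reductases, Akr1b7 left out by name, was 206 per kilobase. Akr1c14, a 3-alpha-hydroxysteroid dehydrogenase, stood at 295 per kilobase, Akr1c13 at 74.4, Akr1d1, the steroid 5-beta-reductase, at 13.0 and Akr1c12 at 5.64. The 4 carbonyl reductases lay between 125 for Cbr4 and 675 for Cbr1, and the quinone reductases Nqo1 and Nqo2 at 1107 and 629 per kilobase.

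Glutathione S-transferases, which attach glutathione to electrophiles, held the largest level of any conjugating family. All 7 annotated mu class genes were listed, and they made up 30.7% of the members' summed level per kilobase. Gstm1 stood at 81934 per kilobase (authors' mean 120689), rank 4 of the whole table and directly after Insl3, Cyp17a1 and Hsd3b1. Gstm2 followed at 22782 per kilobase, then Gstm5 at 2344, Gstm7 at 2181, Gstm4 at 267, Gstm6 at 196 and Gstm3 at 6.48. These genes lie side by side within 149 kb of chromosome 3 (GRCm38, chr3:107895821-108044894), so neighbours in 1 cluster spanned a 12644-fold range.

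The coding sequences of this cluster are close relatives, which bears on how reads of the different genes can be told apart. An annotated coding sequence of 654 bases exists for Gstm1, Gstm2, Gstm3, Gstm4, Gstm6 and Gstm7, and aligned without gaps Gstm1 was 89.4% identical to Gstm3 and 85.9% to Gstm2. The first 120 coding bases, from the start codon, of Gstm1 (chr3:108012255-108017973, minus strand), Gstm2 (chr3:107981702-107986453, minus strand) and Gstm3 (chr3:107963696-107969283, minus strand) are shown because these 3 genes hold the highest, second and lowest levels of the cluster. Capitals mark bases that differ from Gstm1, 18 in each of the others.
Gstm1: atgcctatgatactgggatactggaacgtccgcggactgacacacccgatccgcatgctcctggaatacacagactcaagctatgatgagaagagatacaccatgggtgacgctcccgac
Gstm2: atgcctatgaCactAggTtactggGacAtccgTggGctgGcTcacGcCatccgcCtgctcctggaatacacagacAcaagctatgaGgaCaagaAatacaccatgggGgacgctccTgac
Gstm3: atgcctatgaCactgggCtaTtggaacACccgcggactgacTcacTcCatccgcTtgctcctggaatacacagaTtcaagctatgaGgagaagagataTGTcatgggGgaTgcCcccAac
Of all 50-base stretches in the transcripts of Gstm1, which is the length of the reads, 18.9% also occurred in another gene, 14.1% in the pseudogene Gstm2-ps1 and 8.16% in Gstm3. For Gstm3 the share was 28.8% and for Gstm2 5.65%. The value of Gstm3, an authors' mean of 8.50, is uncertain for this reason.

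**Figure D3:**
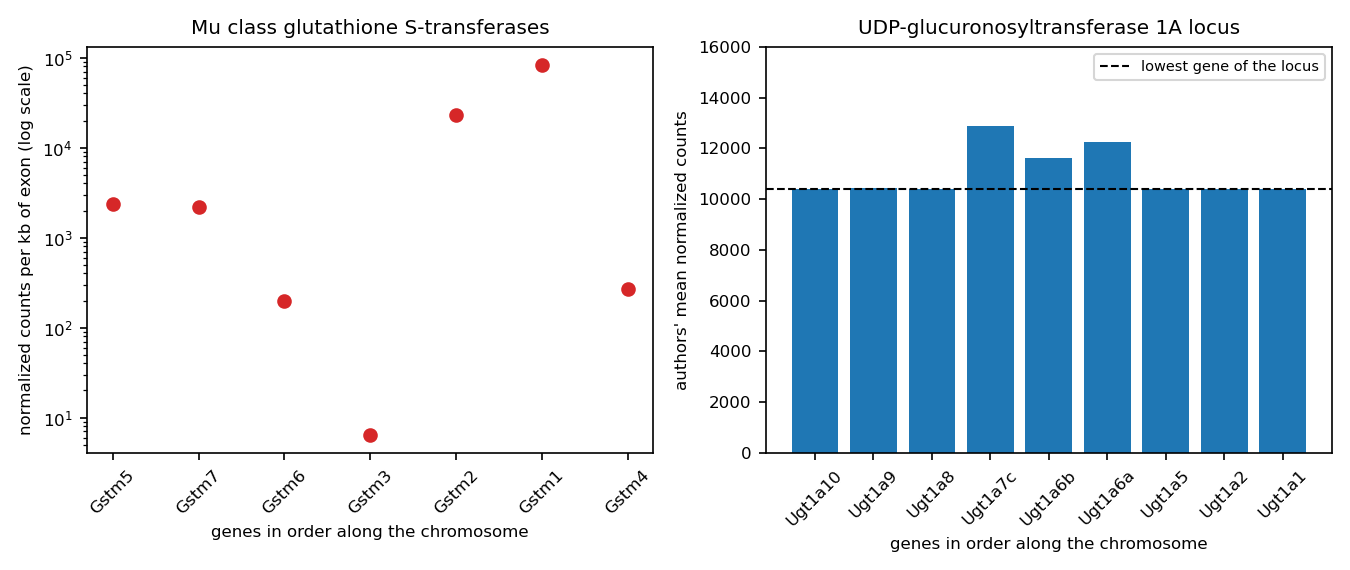
Left, level of the 7 mu class genes (vertical axis, normalized counts per kb of exon, log scale) in their order along the chromosome; right, the authors' mean normalized counts of the 9 genes of the Ugt1a locus, with a dashed line at the lowest, 10407. The mu class points span a 12644-fold range, while 6 of the 9 Ugt1a bars lie within 1% of the line.

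The alpha class enzymes, which act on lipid peroxidation products, were listed for 3 of 4 annotated genes, each above the median of the listed genes. Gsta4, the transferase of 4-hydroxynonenal, stood at 8147 per kilobase, Gsta3 at 2879 and Gsta2 at 2150. Of the 50-base stretches of Gsta2, 49.8% were also found elsewhere, 36.0% in Gsta1, so its value may hold reads of its relatives. The microsomal enzyme Mgst1 reached 8067 per kilobase, Mgst3 666 and Mgst2 22.6. The other cytosolic classes were lower, from Gstp1 at 1637 and Gstk1 at 1500 per kilobase to Gsto2 at 56.2 and Gstp2 at 12.1. The 4 theta class genes, neighbours on chromosome 10, lay within a 1.78-fold range, from 135 for Gstt4 to 241 for Gstt3 per kilobase.

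Gstp1 (chr19:4035407-4037985, minus strand) and Gstp2 (chr19:4040285-4046023, minus strand) were the most alike of the pairs compared. Their coding sequences of 630 bases were 98.1% identical, and their levels per kilobase differed 135-fold. The start of the coding sequence is shown because it holds 6 of the bases in which they differ, in capitals in the lower line.
Gstp1: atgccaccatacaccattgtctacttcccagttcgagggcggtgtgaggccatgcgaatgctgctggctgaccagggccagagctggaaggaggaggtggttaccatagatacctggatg
Gstp2: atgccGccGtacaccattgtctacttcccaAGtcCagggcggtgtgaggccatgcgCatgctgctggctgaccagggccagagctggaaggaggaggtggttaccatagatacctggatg
Of the 50-base stretches of Gstp2, 54.3% occurred in another gene and 49.1% in Gstp1, and for Gstp1 the share was 33.7%. With an authors' mean of 2534 for Gstp1 and 13.5 for Gstp2, the lower value cannot be separated from reads placed on the wrong gene. The same limit holds for Akr1c12 and Akr1c13, 96.2% identical over 969 coding bases, with 28.6% and 24.2% of their 50-base stretches shared and levels of 5.64 and 74.4 per kilobase.

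UDP-glucuronosyltransferases attach glucuronic acid, the main route by which bilirubin, steroids and phenols become soluble. The 9 listed Ugt1a genes occupy 1 locus of 165 kb (chr1:88055388-88220002), and all share 1311 exonic bases. Some pairs share more: Ugt1a7c shares 2170 exonic bases with Ugt1a6a and 1444 with Ugt1a6b. Of the 9 authors' means, 6 lay within 1% of the lowest, Ugt1a5 at 10407. The others exceeded it by 2496 for Ugt1a7c (24.0%), 1832 for Ugt1a6a (17.6%) and 1219 for Ugt1a6b (11.7%). The counts thus describe the locus, and the near-equal values of the 6 genes are no evidence that each is transcribed. The 9 genes together gave 11.5% of the members' summed authors' mean. With the locus counted once, an alternative chosen after seeing the data, the members' share of the summed authors' mean was 3.51%, and 29 in place of 37 members were among the 500 highest. Ugt3a2, the other listed gene, was grouped here only by its Ugt symbol and stood at 200 per kilobase.

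Sulfotransferases, which add sulfate to phenols and steroids, had 4 members listed of 20 annotated, both counts without Sult1e1, which was left out by name. Sult1a1, the phenol sulfotransferase, stood at 693 per kilobase. Sult4a1 followed at 26.2, Sult5a1 at 25.5 and Sult2b1, which sulfates cholesterol, at 15.7, these 3 below the median of the listed genes.

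**Figure D4:**
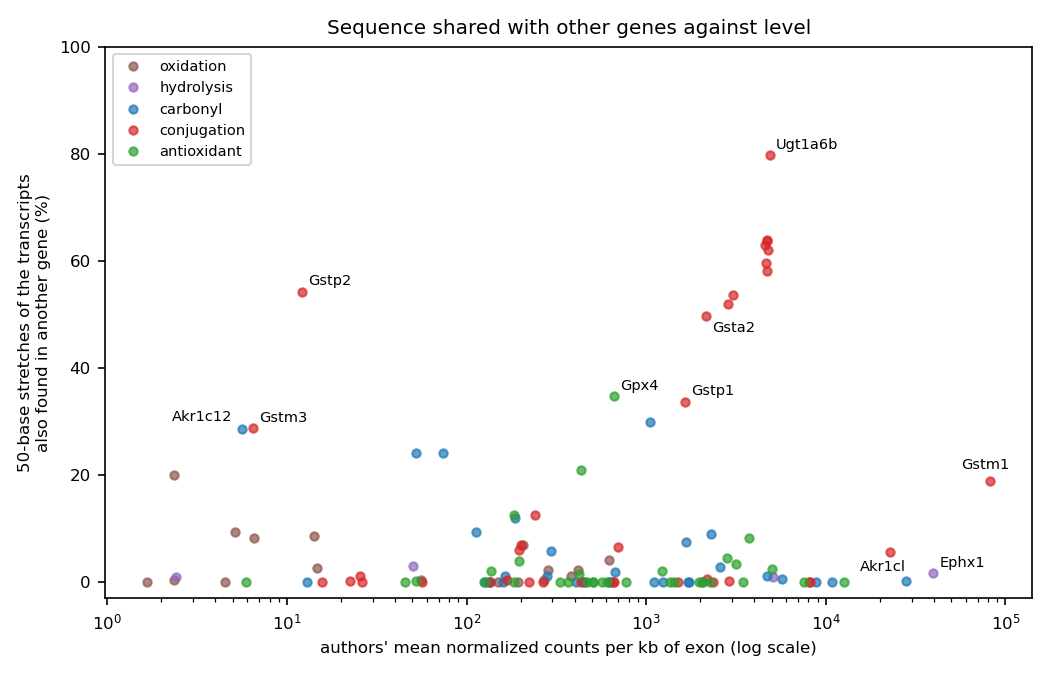
Share of each gene's 50-base transcript stretches that also occur in another gene (vertical axis, %) against its level (horizontal axis, the authors' mean normalized counts per kb of exon, log scale), 1 point per gene and coloured by role, with 10 genes named. The Ugt1a genes form the group above 50% on the right, Gstp2 lies at 54.3% on the left, and Ephx1 and Akr1cl are high with almost no shared sequence.

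Shared sequence was more common among these genes than in the table as a whole. At least 20% of the 50-base stretches were shared in 20 members (16.3%), against 5.57% of listed genes, and 50 members (40.7%) shared none, against 57.5%. Beside the genes above, the 20 included Gpx4 (34.7%, with the pseudogene Gpx4-ps2), Aldh4a1 (30.0%), Aldh3b2 (24.2%), Sod2 (21.0%) and Cyp2a12 (20.1%). Among the highest members, Gstm1 had 18.9%, Gstm2 5.65%, Akr1cl 0.163% and Txnip none. The members also had short transcripts, with a median exonic length of 2554 bases against 4262, and 52 of them (42.3%) lay in 17 groups of neighbours within 200 kb of each other.

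The antioxidant genes were moderately to highly expressed in almost every family. Of the 32, 27 were above the median of the listed genes per kilobase and 10 were among the 500 highest. These counts include the 9 genes grouped here only by a Txn symbol, such as Txnip and Txndc5. Sod1, the cytosolic superoxide dismutase, stood at 3158 per kilobase, the extracellular Sod3 at 1979 and the mitochondrial Sod2 at 433. Cat, the peroxisomal catalase, reached 2275 per kilobase. The level of Sod2 depended on its long exonic length of 10008 bases. Per coding kilobase Sod2 stood at 6292, above Cat at 3760 and below Sod3 at 9825.

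Among the glutathione peroxidases, Gpx1, which reduces hydrogen peroxide in the cytosol, was highest at 7563 per kilobase. Gpx8 stood at 1424, Gpx4, the enzyme that reduces phospholipid hydroperoxides, at 659, Gpx7 at 368 and Gpx6 at 5.95. The peroxiredoxins Prdx1, Prdx2 and Prdx5 lay between 2068 and 3727 per kilobase, Prdx4 of the endoplasmic reticulum at 602 and Prdx6b at 52.4.

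In the thioredoxin system, Txn1, the cytosolic thioredoxin, stood at 4994 per kilobase and its reductase Txnrd1 at 571, with the mitochondrial reductase Txnrd2 at 183. Txnip, which binds thioredoxin and blocks it, was the highest of the antioxidant role at 12669 per kilobase. Txnip is an inhibitor and not an antioxidant enzyme, and Txndc5, a protein disulfide isomerase of the endoplasmic reticulum at 3466 per kilobase, also entered through its symbol. Txndc2, Txndc8 and Txnrd3 are known for their expression in spermatids or testis, and stood at 508, 45.5 and 332 per kilobase. Of the spermatid markers, all 6 were listed, from 17.2 per kilobase for Acrv1 to 3570 for Prm2, and their part in the values of these 3 genes was not tested.

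Glutathione itself is made by glutamate-cysteine ligase and glutathione synthetase and recycled by glutathione reductase. Gsr, the reductase, stood at 773 per kilobase, Gclc, the catalytic subunit of the ligase, at 503, its modifier Gclm at 197 and Gss, the synthetase, at 127, the only one of these 4 below the median of the listed genes. Hmox1, which degrades haem to biliverdin and is induced by oxidative stress, stood at 1364 per kilobase.

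Partner genes of these pathways, from producers of NADPH to export pumps, were mostly above the median of the listed genes as well. Of 50 partner genes, 40 were listed, 33 of them above the median of the listed genes, with a median of 678 per kilobase. Gsto1 is in both lists. Partners below that median included Glrx2 at 111, Sesn3 at 80.1, Ggt1 at 35.4 and Ggt7 at 10.8 per kilobase. The NADPH-producing enzymes Me1 and Idh1 stood at 16014 and 14315 per kilobase and Pgd at 1770. Adh1, an alcohol dehydrogenase whose aldehyde products the aldehyde dehydrogenases take up, reached 26293 per kilobase. The ferritin genes Ftl1 and Fth1, which store iron, stood at 11914 and 11229, and the metallothioneins Mt2 and Mt1 at 7631 and 7189 per kilobase. Slc3a2, the heavy chain of several amino acid transporters, reached 14032, and Slc7a11, the cystine carrier that feeds glutathione synthesis, 308 per kilobase. Export pumps of the Abcc and Abcg families were lower, from 52.1 for Abcg2 to 272 for Abcc5 per kilobase.

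Of 12 regulators of these pathways, 4 were listed, all above the median of the listed genes. Nfe2l1 stood at 4520 per kilobase and Nfe2l2, the transcription factor NRF2 that binds antioxidant response elements, at 1022. Keap1, which retains NRF2 and directs its degradation, stood at 538, and Ppara, a receptor for fatty acids, at 333 per kilobase. The other 8 were not analysed here.

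The promoters of the members were searched for the core of the antioxidant response element, TGACNNNGC, and for that of the xenobiotic response element bound by the aryl hydrocarbon receptor, GCGTG, on both strands. The window ran from 250 bases before to 50 bases after each RefSeq start (GRCm38.p6), and 99 of the 123 members had one. A core of the antioxidant response element was found in 15 members, 15.2% (95% Wilson interval 9.40 to 23.5%). The share was 16.6% of 8171 listed genes and 14.0% of 27025 genes in all. Within these windows, the members that had one thus held the core about as often as other genes. Members without a window included Hmox1, Gclc, Gsr, Gsta4 and Aldh2, and sequence further from the start was not searched. The xenobiotic core was found in 38 members, 38.4% (29.4 to 48.2%), against 52.1% of the listed genes and 35.2% of all. The cores can overlap each other. The antioxidant core was found before the start in 14 members. Windows of 5 of these, chosen among those that make, use or recycle glutathione or reduced thioredoxin, are shown. Others of that kind, such as Gstm5 and Gstm7, are not shown. The windows are on the strand of the gene, with the antioxidant core in capitals: TGACNNNGC, or its reverse complement where the match is on the other strand.
Mgst1 (chr6:138140456-138140494, plus strand): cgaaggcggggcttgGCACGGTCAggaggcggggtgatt
Prdx1 (chr4:116685451-116685489, plus strand): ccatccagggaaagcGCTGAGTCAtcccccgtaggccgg
Gsta3 (chr1:21240449-21240487, plus strand): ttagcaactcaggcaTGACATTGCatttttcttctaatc
Txnrd1 (chr10:82859099-82859137, plus strand): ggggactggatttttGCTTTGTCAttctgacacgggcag
Gclm (chr3:122245408-122245446, plus strand): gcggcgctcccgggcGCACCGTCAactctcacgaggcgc
The core lies 47 bases before a RefSeq start in Mgst1, 124 in Prdx1, 112 in Gsta3, 83 in Txnrd1 and 125 in Gclm. Levels of these genes ran from 197 per kilobase for Gclm to 8067 for Mgst1. A match of these letters is a description of the sequence and not a binding site.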

How the data were processed

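RNA of sorted FLCs and ALCs was sequenced as paired 50-base reads, demultiplexed with CASAVA 1.8.2 per the submitters' processing notes, mapped and counted by the authors on a GENCODE annotation of GRCm38 older than the one used here, and compared with DESeq2 by the authors. The deposited table gives, for each listed gene, the authors' mean signal (counts scaled by size factors and then averaged across the 6 libraries) and columns of their own comparison (log2 fold change, its error, test statistic and p-values), which were not used. Since no value per library was used, the planned count test of FLCs against ALCs was not run, and no group difference, error or p-value is given. The sample sheet was not used.

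Symbols were matched to GENCODE vM21 (10223 by symbol, 299 by an older symbol, 58 not matched). Exonic length is the union of a gene's exons. Levels are the authors' mean per 1000 exonic bases, with no filter and no pseudocount. Shared sequence is the share of a gene's distinct 50-base transcript stretches found in any other annotated gene. Wilson intervals (95%) cover counting error only. Python 3.11.15, pandas 2.3.3, numpy 2.4.6, scipy 1.17.1 and matplotlib 3.10.9 were used, and the functions were tested on simulated data.

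The members and lists were chosen with earlier results of these data known. Named genes are the 20 highest members per kilobase, the highest and lowest of each family, the 5 lowest by mean, close paralogs and the listed pathway genes; paralogs were judged by transcript and coding sequence, in place of the planned protein identity. Genes named beyond these were chosen after their values were seen. Coding sequences were read from GENCODE transcripts and promoters from RefSeq. Alternatives were another length, a minimum mean of 10, members left out or added, and another motif.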

Additional observations from a re-analysis of the deposited data

How the results depend on the processing

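No paired analysis was possible because the values used are 1 mean over all 6 libraries, and for the same reason no library could be left out. The members' share of the summed authors' mean, 3.88%, was 3.36% without Gstm1, 5.64% per kilobase, 5.39% with Aldh1a1, Akr1b7 and Sult1e1 added back, 3.59% without Txndc, Txnl and Txnip genes and 3.51% with the Ugt1a locus counted once (chosen after seeing the data). The members' median per kilobase, 467, was 1492 with no length (679 over listed genes), 1444 per coding kilobase (432), 602 for means of at least 10 (164), 478 without Txndc, Txnl and Txnip genes and 433 with Ugt1a counted once, each above the median over listed genes. The count of 37 among the highest 500 was 29 with no length, 30 per coding kilobase and 29 with Ugt1a counted once, and with a limit of 1000, scaled to 500, it was 23.5. The mu class share, 30.7%, was 19.3% with no length, 10.1% without Gstm1, 30.7% for means of at least 10 and 34.1% with Ugt1a counted once, so it rests largely on Gstm1. The antioxidant core was in 15.2% of promoters and the same core followed by A in 3.03% (3.28% over listed genes).

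The spread between libraries is not known from the values used, and no difference between levels was set against it. The annotation is newer than the authors' one, and gene lengths were taken as the exon union. The order of single genes can change with the length used. Per coding kilobase, Aldh2 stood at 28879 and Aldh1b1 at 16013, Gsta3 at 18862 and Gsta4 at 15486, and Gclm at 1444 and Gclc at 991. Each of these pairs had the opposite order per kilobase of exon.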
